A study of Mus musculus with 4 samples.

Results

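A set of 10 genes whose products dampen mitogen-activated protein (MAP) kinase signalling was followed in regulatory T (Treg) cells of the mouse spleen. Treg cells are CD4 T cells that depend on the transcription factor Foxp3 and keep other immune cells in check. The genes are the 6 dual specificity phosphatase genes Dusp1, Dusp2, Dusp4, Dusp5, Dusp6 and Dusp10 and the 4 inhibitor genes Spry1, Spry2, Spred1 and Spred2. They were chosen by name, as rows of the deposited count table whose identifier equals one of these symbols, and all 10 were found among the 20837 genes of the table. The data are 4 RNA libraries, 2 of genotype Foxp3YFP-CreKmt2d+/+ (WT) and 2 of genotype Foxp3YFP-CreKmt2dfl/fl (cKO). Both groups carry a Cre recombinase fused to a yellow fluorescent protein and driven by Foxp3, and only the cKO libraries come from mice whose Kmt2d alleles, which encode a histone H3 lysine 4 methyltransferase, are flanked by loxP sites for deletion in Foxp3-expressing cells. No treatment is given in the labels, and no age or sex is given there for these Treg cells. The extraction protocol describes cultured bone marrow macrophages of another knockout, which goes against the fields for tissue, cell type and genotype. Those fields were used to group the libraries. Separate mice per library are not stated, and p-values therefore reflect only how far these libraries differ, possibly for technical reasons.

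A T cell receptor signal passes through Ras, RAF and MEK to the MAP kinase ERK, and parallel cascades activate p38 and JNK. Dual specificity phosphatases remove phosphate from both the threonine and the tyrosine of the activation loop of these kinases. Many of their genes are themselves induced by MAP kinase signalling, which closes a negative feedback loop. Sprouty (Spry) and Spred proteins act higher up, at the step between the receptor, Ras and RAF. Spred proteins do so by bringing neurofibromin, an inactivator of Ras, to the membrane.

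Library totals ranged from 28442416 to 35560491 counts, and levels are given as CPM (counts divided by the TMM-scaled library size). The level of Kmt2d itself did not fall with the cKO label (721 and 704 CPM in WT, 836 and 793 CPM in cKO), which is no check of the labels because the counts cover the full gene and not the deleted exons alone. T cell transcripts were abundant in every library, with Cd4 at 645 to 841 CPM and Cd3e at 367 to 404 CPM. The macrophage receptor gene Adgre1 measured 24.1 to 45.2 CPM, but 12 macrophage and monocyte markers together summed to 646 to 1101 CPM. Foxp3 was present in every library and fell, from 278 and 250 CPM in WT to 170 and 180 CPM in cKO (log2 fold change -0.59, SE 0.07; edgeR adjusted p = 0.00493). Of 10 Treg identity genes, 5 fell (Nrp1 by 1.39 on the log2 scale, Tnfrsf4, Foxp3, Tnfrsf18 and Ikzf4), Il2ra rose and 4 did not pass (median log2 fold change -0.38). Of 12 pan T cell genes, 8 fell, 0 rose and 4 did not pass (median log2 fold change -0.32). Markers of other cell types differed from list to list. All 12 neutrophil markers and all 7 basophil and mast cell markers rose. The neutrophil markers summed to 79.2 and 203 CPM in WT and 639 and 1369 CPM in cKO, and those of basophils to 2.77 and 6.76 CPM in WT and 26.2 and 46.3 CPM in cKO. Markers of CD8 T and NK cells rose in 7 of 8 cases, with a sum of 143 and 171 CPM in WT and 252 and 264 CPM in cKO. Of 12 macrophage and monocyte markers, 2 rose (Lyz2 and Ly6c2), 0 fell and 10 did not pass (median log2 fold change -0.31), with sums of 646 and 886 CPM in WT and 1101 and 923 CPM in cKO. Of 8 B cell markers 2 rose, 0 fell and 6 did not pass, with sums of 113 and 137 CPM in WT and 150 and 264 CPM in cKO. Of 9 dendritic cell markers 5 rose and 0 fell (167 and 169 CPM against 237 and 231 CPM), and of 6 plasma cell genes 3 rose and 1 fell (601 and 696 CPM against 810 and 824 CPM). Of 8 tested erythroid and platelet genes 1 rose, 0 fell and 7 did not pass (median log2 fold change -0.37). The part of these shifts in the values below was not tested, and in bulk RNA fewer cells of a type and less RNA per cell cannot be told apart.

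The phosphatase genes moved in both directions. Dusp10, Dusp4, Dusp5 and Dusp1 fell in the libraries labelled cKO, from 1.67-fold (Dusp1) to 2.73-fold (Dusp10). Dusp6, the ERK phosphatase of the cytoplasm, rose by 48.5%. Among the inhibitors Spred1 rose, Spred2 fell and neither Sprouty gene passed the test. In all, 5 of the 10 genes fell and 2 rose, beside 15.1% of all 13861 tested genes called lower and 16.5% called higher (edgeR quasi-likelihood test, adjusted p under 0.05). Called in either direction were 7 of 10, against 31.6% of all tested genes. The 10 genes were chosen with earlier results of these data known, so these shares are a description only. The median log2 fold change was -0.25 for the 10 genes and 0.0003 for all tested genes. The groups did not overlap for the 5 genes that fell (30.9% of all tested genes had both cKO libraries lowest). They were also apart for the 2 that rose and for Dusp2 (35.1% had both cKO libraries highest). All 10 passed the filter on low counts, their counts in a library ranging from 210 (Spry2) to 44462 (Dusp1).

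**Figure D1:**
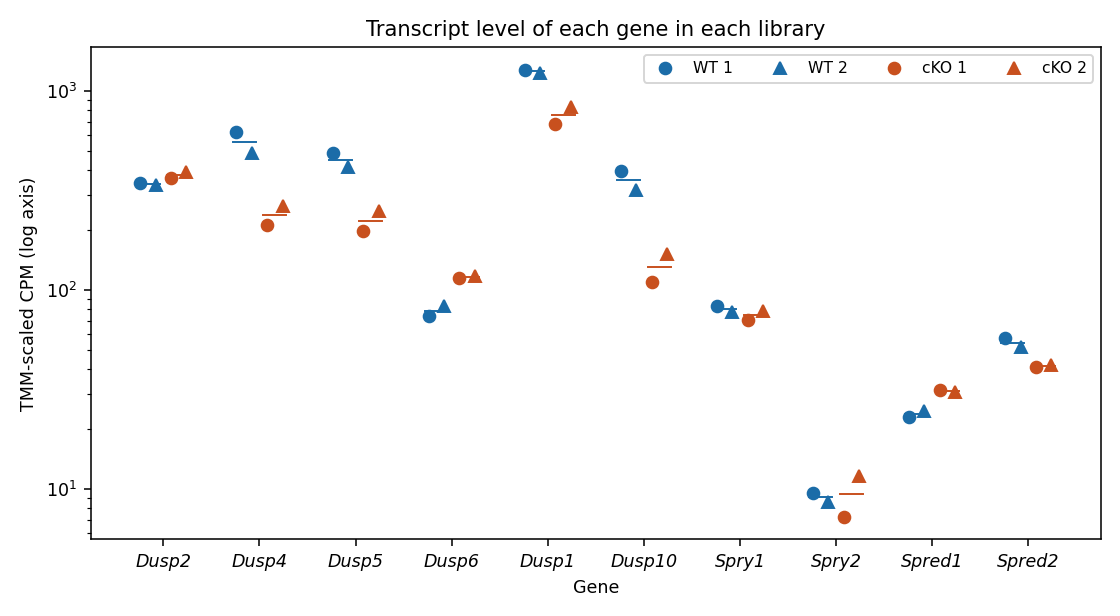
TMM-scaled CPM (log axis) of each of the 10 genes in the 4 libraries, with circles for replicate 1, triangles for replicate 2 and a line at each group mean. Dusp4, Dusp5, Dusp1 and Dusp10 sit lower in both cKO libraries, Dusp6 and Spred1 sit higher, and the groups overlap for Spry1 and Spry2.

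Dusp4 encodes a nuclear phosphatase that acts on ERK and also on JNK and p38 (gene number 319520, mm10 chromosome 8, 34807610 to 34819894). It measured 621 and 489 CPM in WT against 213 and 265 CPM in cKO. The lowest WT library was 1.85 times the highest cKO library, so the groups were well apart although the WT libraries themselves differed 1.27-fold. The group means were 555 ± 93.3 and 239 ± 36.4 CPM (SD, n = 2), with a log2 fold change of -1.21 (SE 0.15; edgeR adjusted p = 0.00512).

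Dusp5 encodes a nuclear phosphatase selective for ERK (gene number 240672, chromosome 19, 53529145 to 53541809). Its transcripts measured 487 and 416 CPM in WT and 198 and 249 CPM in cKO. Here too no cKO library reached a WT library, the nearest pair differing 1.67-fold. The log2 fold change was -1.02 (SE 0.13; edgeR adjusted p = 0.00541), a 2.02-fold lower level in cKO.

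Dusp6, the ERK-selective phosphatase that resides in the cytoplasm, went the other way (gene number 67603, chromosome 10, 99263231 to 99267489). It measured 74.4 and 82.6 CPM in WT and 115 and 118 CPM in cKO. Both cKO libraries were high and close to each other, and the nearest pair across groups differed 1.39-fold. The log2 fold change was 0.57 (SE 0.07; edgeR adjusted p = 0.00493).

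Dusp2, known as PAC-1, is a nuclear phosphatase found mainly in blood cells (gene number 13537, chromosome 2, 127336159 to 127338377). It measured 344 and 336 CPM in WT and 366 and 391 CPM in cKO. Both cKO libraries were above both WT libraries by a narrow margin, the nearest pair differing 1.07-fold. The log2 fold change of 0.16 (SE 0.05, 95% interval 0.02 to 0.29 before adjustment) did not pass (edgeR adjusted p = 0.0779). It passes with upper-quartile scaling (edgeR adjusted p = 0.0394).

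Dusp1, or MKP-1, is an immediate early gene whose nuclear product dephosphorylates p38 and JNK as well as ERK (gene number 19252, chromosome 17, 26505591 to 26508472). It had the highest level of the 10, with 1281 and 1238 CPM in WT and 680 and 830 CPM in cKO. The WT libraries were close together and both cKO libraries lay lower, the nearest pair differing 1.49-fold. Its log2 fold change was -0.74 (SE 0.10; edgeR adjusted p = 0.0057).

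Dusp10, or MKP-5, acts on p38 and JNK rather than ERK (gene number 63953, chromosome 1, 184034381 to 184075636). It showed the largest difference among the 10 genes. The WT libraries measured 398 and 317 CPM and the cKO libraries 110 and 152 CPM, so that the lowest WT library was 2.09 times the highest cKO library. The group means were 358 ± 57.2 and 131 ± 29.8 CPM (SD, n = 2) and the log2 fold change was -1.45 (SE 0.18; edgeR adjusted p = 0.00517). Among the 2088 genes called lower, Dusp10 ranked 228th by the size of its fold change. With Dusp4 and Dusp5 it was 1 of 3 members called with a fall of at least 2-fold, against 3.14% of all tested genes.

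The sequence upstream of 3 genes that fell and of Dusp6, which rose, is shown to set genes that moved in opposite directions side by side. Each line holds bases 250 to 51 before the RefSeq start, 5′ to 3′ on the gene's strand, from the GRCm38.p6 promoter table. Capitals mark matches to any of 8 motifs searched on both strands. The windows are chr17:26508523-26508722 (minus strand) for Dusp1, chr19:53528895-53529094 (plus) for Dusp5, chr1:184034131-184034330 (plus) for Dusp10 and chr10:99262981-99263180 (plus) for Dusp6.
Dusp1: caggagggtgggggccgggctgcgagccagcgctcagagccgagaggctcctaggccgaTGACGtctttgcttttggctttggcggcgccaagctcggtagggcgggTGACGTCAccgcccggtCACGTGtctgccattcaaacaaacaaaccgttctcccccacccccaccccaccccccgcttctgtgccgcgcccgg
Dusp5: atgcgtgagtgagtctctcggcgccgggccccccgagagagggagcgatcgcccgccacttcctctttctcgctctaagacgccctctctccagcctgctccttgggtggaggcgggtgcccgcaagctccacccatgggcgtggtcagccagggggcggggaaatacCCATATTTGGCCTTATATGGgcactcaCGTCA
Dusp10: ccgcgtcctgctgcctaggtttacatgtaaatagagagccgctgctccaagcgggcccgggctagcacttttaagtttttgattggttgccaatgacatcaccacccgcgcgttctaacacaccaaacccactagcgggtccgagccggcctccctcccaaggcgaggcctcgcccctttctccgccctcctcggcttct
Dusp6: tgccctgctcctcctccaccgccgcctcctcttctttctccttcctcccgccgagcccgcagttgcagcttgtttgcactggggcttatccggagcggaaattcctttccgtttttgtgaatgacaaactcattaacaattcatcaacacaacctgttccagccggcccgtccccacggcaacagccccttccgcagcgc
The Dusp1 window holds a cyclic AMP response element (CRE, TGACGTCA) at 143 to 136 bases before the start, a further short CRE core (TGACG) outside it at 191 to 187, and an E-box (CACGTG) at 126 to 121. The Dusp5 window holds adjacent CArG boxes, the sequence bound by serum response factor, at 82 to 73 and 72 to 63, and a short CRE core at 55 to 51. Neither Dusp10 nor Dusp6 held a match to these motifs or to the others searched, the AP-1 site TGANTCA, the ETS core CCGGAAG, the TATA letters TATAAA and the NF-kB site. Of 32817 promoter windows of this length in the table, 0.829% held the full CRE, 12.7% the short core (which the full CRE contains), 4.34% the E-box and 1.16% a CArG box. AP-1 sites stood in 5.58%, ETS cores in 3.98%, TATA letters in 9.14% and NF-kB sites in 3.13%. In the same window Dusp2 held an E-box at 109 to 104, and Spry1, Spry2, Spred1 and Spred2 held none of the 8. The table matched 9 of the 10 genes, all except Dusp4. A match is a stretch of letters and not a measured binding site. All 200 bases of the Dusp5 and Spry1 windows, 171 of Dusp10 and 17 of Spred2 lie in annotated exons, whose genes were not recorded. The genes AC137853.2, 1700056E22Rik and Gm42922 overlap Dusp5, Dusp10 and Spry1 on the opposite strand, and Ergic1 and Gm8225 overlap Dusp1. Ergic1, which shares 11 exonic bases with Dusp1, had 2127 to 3198 counts in a library, against 19788 to 44462 for Dusp1. For 1700056E22Rik there were 64 to 114 counts in a library, against 3198 to 13826 for Dusp10.

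Spry1 restrains Ras and ERK signalling after receptor activation and is the more abundant of the Sprouty genes here (gene number 24063, chromosome 3, 37639947 to 37644599). It measured 83.1 and 77.7 CPM in WT and 70.3 and 78.6 CPM in cKO. The groups overlapped, since cKO 2 lay above WT 2. The log2 fold change of -0.11 (SE 0.07, 95% interval -0.29 to 0.07) did not pass (edgeR adjusted p = 0.319).

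Spry2 encodes a second Sprouty protein of the same action (gene number 24064, chromosome 14, 105891947 to 105896819). It had the fewest counts of the 10, at 9.54 and 8.56 CPM in WT and 7.22 and 11.6 CPM in cKO. The cKO libraries lay on either side of the WT libraries and differed 1.61-fold from each other. The log2 fold change was 0.06 (SE 0.23, 95% interval -0.50 to 0.63, edgeR adjusted p = 0.884).

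The Spred genes differed in opposite directions. Spred1 (gene number 114715, chromosome 2, 117121071 to 117182279) measured 23.0 and 24.7 CPM in WT and 31.5 and 30.8 CPM in cKO, with both cKO libraries higher. Its log2 fold change was 0.38 (SE 0.07; edgeR adjusted p = 0.0111). This call ends without WT 1 (edgeR adjusted p = 0.0625) and without cKO 1 (0.0557). Spred2 (gene number 114716, chromosome 11, 19924442 to 20024026) measured 57.3 and 51.5 CPM in WT and 41.1 and 42.0 CPM in cKO, with both cKO libraries lower. Its log2 fold change was -0.39 (SE 0.07; edgeR adjusted p = 0.0104). Summed, the pair held 80.3 and 76.2 CPM in WT and 72.6 and 72.7 CPM in cKO.

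**Figure D2:**
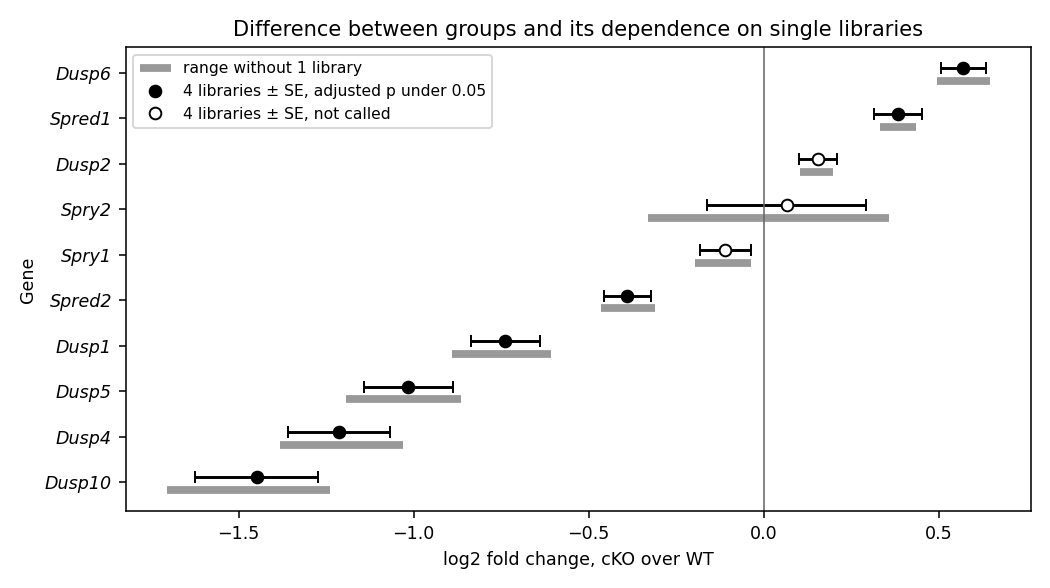
Log2 fold change of each gene, cKO over WT, as points with the standard error (filled where the adjusted p is under 0.05) and, in grey, the range when each of the 4 libraries is left out in turn. The range stays below 0 for Dusp10 (-1.71 to -1.24), Dusp4, Dusp5, Dusp1, Spred2 and Spry1, stays above 0 for Dusp6, Spred1 and Dusp2, and crosses 0 for Spry2 (-0.33 to 0.36).

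The 6 phosphatase genes together held less RNA in the libraries labelled cKO and were differently composed. They summed to 3205 and 2880 CPM in WT and to 1682 and 2005 CPM in cKO. Dusp1, Dusp4, Dusp5 and Dusp10 made up 87.0% and 85.5% of that sum in WT and 71.4% and 74.6% in cKO. The sum of Dusp2 and Dusp6 was 418 and 419 CPM in WT and 481 and 509 CPM in cKO. No cKO library reached the WT range in the first 2 of these measures, and both exceeded it in the third. The share and the sum of Dusp2 and Dusp6 had to separate the groups, since their genes were grouped by observed direction. They restate the values of the single genes. The 4 Sprouty and Spred genes summed to 173 and 162 CPM in WT and to 150 and 163 CPM in cKO, which overlap.

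Ratios of counts within a library do not depend on the scaling between libraries. For each count of Dusp6, the cytoplasmic ERK phosphatase, there were 8.35 and 5.92 counts of Dusp4 in WT against 1.85 and 2.25 in cKO. The nuclear ERK phosphatase Dusp5 gave 6.55 and 5.04 counts per Dusp6 count in WT and 1.72 and 2.11 in cKO. Dusp10 gave 5.36 and 3.84 counts per Dusp6 count in WT and 0.955 and 1.29 in cKO. Against Dusp2 the ratio of Dusp10 was 1.16 and 0.944 in WT and 0.301 and 0.389 in cKO. The groups did not overlap in these 4 ratios, which follows from the single genes and adds no support. Each ratio sets a gene lower in both cKO libraries over a gene higher in both. Ratios between genes that fell differed among pairs. Dusp4 over Dusp5 was 1.28 and 1.18 in WT and 1.08 and 1.07 in cKO, whereas Dusp10 over Dusp1 was 0.311 and 0.256 in WT and 0.162 and 0.183 in cKO, and Dusp10 over Spred2 was 6.95 and 6.17 in WT and 2.68 and 3.62 in cKO.

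Levels of different genes were compared as CPM per kilobase of annotated exon (the union of exons in GENCODE M21). Dusp1 was highest in both groups, at 381 in WT and 228 in cKO. In WT, Dusp4 (203), Dusp5 (183) and Dusp2 (170) followed. Their order is not resolved, since the WT libraries of Dusp4 spanned 179 to 227 and those of Dusp5 168 to 197, and with the longest coding transcript as the length Dusp2 came second. Dusp10 was next at 118, and Spry1 (27.7) and Dusp6 (25.1) lay close together. Spred2 followed at 11.8, then Spry2 (4.34) and Spred1 (3.52). In cKO, Dusp2 was second at 189, above Dusp5 (90.3) and Dusp4 (87.3), whose libraries overlapped. Dusp6 at 37.2 lay close to Dusp10 at 43.1, of which the lower library measured 36.2.

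**Figure D3:**
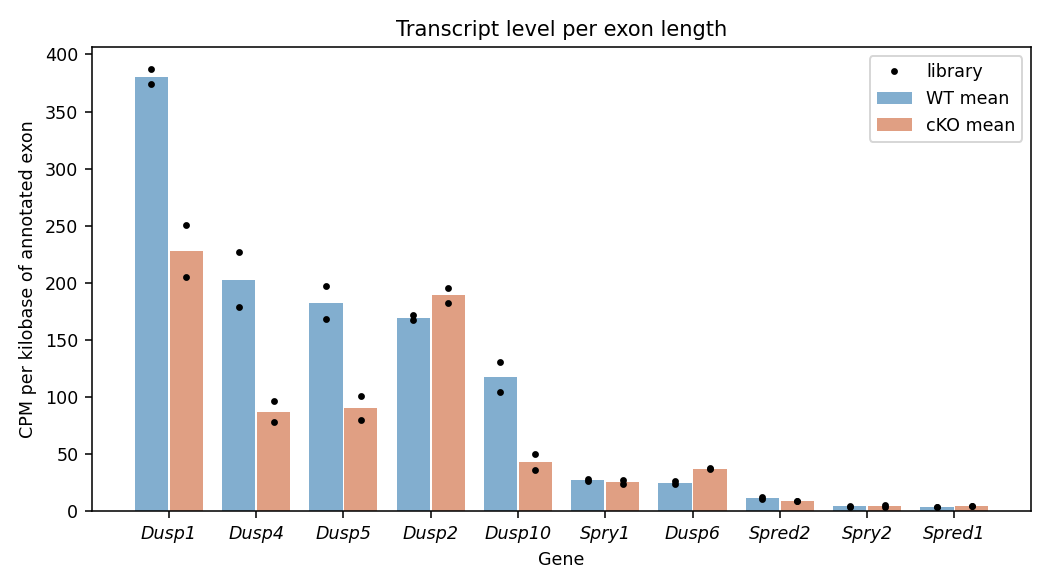
CPM per kilobase of annotated exon for each gene, as group means (bars) and single libraries (points), ordered by the WT mean. Dusp1 leads in both groups, and Dusp2 stands above Dusp4 and Dusp5 in cKO but not in WT.

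The 5 genes that fell shared a pattern within the groups. In each of them WT 1 was above WT 2 and cKO 2 above cKO 1, by 1.03-fold (Dusp1) to 1.27-fold (Dusp4) in WT and by 1.02-fold (Spred2) to 1.38-fold (Dusp10) in cKO. The order was not particular to the falls, since 3 members that were not called had it too. These were Dusp2 (1.02-fold in WT and 1.07-fold in cKO), Spry1 (1.07-fold and 1.12-fold) and Spry2 (1.11-fold and 1.61-fold). In Dusp6 and Spred1, WT 1 was below WT 2. The same order, WT 1 above WT 2 and cKO 2 above cKO 1, holds for 59.1% of all genes called lower. Haemoglobin and other erythroid and platelet transcripts also followed it, with sums of 672 and 242 CPM in WT and 185 and 522 CPM in cKO. The part of this in the results was not tested. Each of the 5 falls kept its call when each library was left out in turn, that of Spred2 only narrowly.

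Genes around these feedback inhibitors were described from lists chosen with earlier results of these data known. The counts of each list below stand beside 15.1% of all tested genes called lower and 16.5% called higher. Among 10 tested genes of further dual specificity phosphatases, 1 rose, 1 fell and 8 did not pass (median log2 fold change 0.06). Dusp14, a small phosphatase known to dampen T cell receptor signalling, fell from 8.38 and 7.15 CPM in WT to 1.48 and 2.69 CPM in cKO (log2 fold change -1.88, SE 0.27, edgeR adjusted p = 0.00671). Dusp22, which inactivates the T cell kinase Lck, rose from 3.72 and 4.46 CPM to 9.32 and 7.99 CPM (log2 fold change 1.08, SE 0.16, edgeR adjusted p = 0.0066). Both had low counts, and their groups did not overlap. The MAP kinase phosphatase genes Dusp7 (0.04) and Dusp16 (0.08) had small log2 fold changes that did not pass.

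Of 10 tested genes of other ERK feedback proteins, 5 fell, 2 rose and 3 did not pass (median log2 fold change -0.21). Errfi1, an inhibitor of the EGF receptor, fell by 0.89 on the log2 scale (SE 0.10). Lrig1, which restrains receptor tyrosine kinases, fell from 284 and 244 CPM to 154 and 171 CPM, a log2 fold change of -0.70 (SE 0.09). The adaptor gene Dok2 fell by 0.31, Sh2b3 by 0.20 and Il17rd, which encodes the ERK inhibitor SEF, by 1.24. Ier3 rose by 0.69 and Pea15a, whose product holds ERK in the cytoplasm, by 0.18. The 7 calls had edgeR adjusted p from 0.00466 to 0.0432. Leaving out any 1 library ended the calls for Il17rd (edgeR adjusted p from 0.061 to 0.144), Sh2b3 (0.065 to 0.178) and Pea15a (0.118 to 0.246), and the call for Ier3 ended without WT 1 (0.0699) or cKO 2 (0.0658). The other Sprouty and Spred genes were scarce, with Spry4 at 0.481 to 0.811 CPM and Spred3 at 0.288 to 0.434 CPM, and neither passed.

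In the list of RAF, MEK and ERK kinases and scaffolds, 3 of 14 genes fell, 2 rose and 9 missed the threshold (median log2 fold change 0.03). These 5 calls of 14 stand near the 31.6% called over all tested genes. Mapk3, which encodes an ERK kinase, had a log2 fold change of 0.17, and the MEK genes Map2k1 and Map2k2 had log2 fold changes of 0.08 and 0.09, none of them passing. Ksr1, a scaffold that holds RAF, MEK and ERK together, fell by 0.69 on the log2 scale (edgeR, SE 0.09; adjusted p = 0.00541). Rps6ka1, a kinase activated by ERK, fell by 0.34 and the RAF activator gene Shoc2 by 0.23. Mapk7 (ERK5) rose by 0.54 and the scaffold gene Lamtor3 by 0.24. The call for Shoc2 ends without WT 1 (edgeR adjusted p = 0.121), without cKO 1 (0.132) and without cKO 2 (0.103), and that for Lamtor3 without any 1 library (0.106 to 0.25).

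Among 16 Ras genes, activators and inactivators, 7 fell, 5 rose and 4 did not pass (median log2 fold change -0.16). Rasgrp1, the main Ras activator downstream of the T cell receptor, fell from 471 and 448 CPM to 372 and 361 CPM (log2 fold change -0.33, SE 0.05). Rasal1, an inactivator of Ras, fell by 0.88 (SE 0.11), while Rasgrp4 rose by 0.63 (SE 0.10) and Nras by 0.39 (SE 0.06). These 4 had edgeR adjusted p from 0.00541 to 0.00804. The neurofibromin gene Nf1, the partner of Spred proteins, had a log2 fold change of 0.19 and did not pass (edgeR adjusted p = 0.133).

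Of 14 p38 and JNK pathway genes, 6 fell, 1 rose and 7 did not pass (median log2 fold change -0.11). The p38 alpha gene Mapk14 (-0.03), the p38 kinase kinase gene Map2k6 (-0.04) and the JNK genes Mapk8 (-0.07) and Mapk9 (0.06) did not pass. Map3k5, an upstream kinase of both cascades, fell by 0.55 on the log2 scale (edgeR, SE 0.05; adjusted p = 0.00363). The p38 beta and gamma genes Mapk11 and Mapk12 fell by 0.70 and 1.29. Mapk13 rose by 2.85 (SE 0.40) from a low level, with 4 and 8 counts in WT against 37 and 50 in cKO (3.52 without WT 2).

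Transcriptional effectors of ERK signalling and genes that it is known to induce did not move as one. In the list of effectors and targets 11 of 22 tested genes fell, 3 rose and 8 did not pass (median log2 fold change -0.24). Junb, an AP-1 gene, fell from 3642 and 3243 CPM to 1463 and 1897 CPM, and the log2 fold change was -1.03 (SE 0.13; edgeR adjusted p = 0.00543). Fosl2 fell by 1.44, Phlda1 by 0.74, Egr3 by 0.68, Egr2 by 0.56 and Ier2 by 0.53. Etv5, an ETS factor gene often used as a readout of ERK activity, also fell by 0.53. The call for Egr2 did not hold each time 1 library was left out (log2 fold change -0.77 to -0.31). The cyclin gene Ccnd1 rose by 0.84 (SE 0.07) and Myc by 0.68 (SE 0.08). Fos measured 966 and 984 CPM in WT and 996 and 1019 CPM in cKO and Egr1 measured 235 and 282 CPM in WT and 241 and 236 CPM in cKO, and neither passed.

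**Figure D4:**
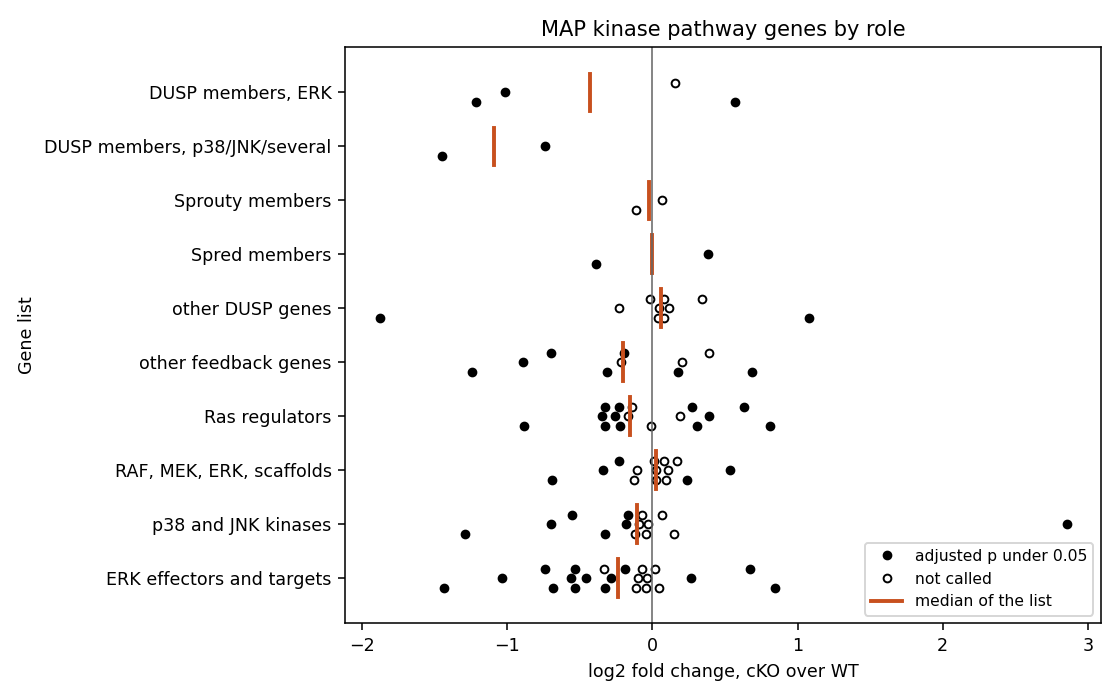
Log2 fold changes, cKO over WT, of the tested genes in each role list, filled where the adjusted p is under 0.05, with the list median as a bar. The phosphatases of the first 2 rows spread from -1.45 to 0.57, and the list of RAF, MEK and ERK kinases and scaffolds runs from -0.69 to 0.54 with a median of 0.03.

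Dusp1 is among the genes known to be induced while tissue is dissociated, so other genes of that kind were examined with it. Of 14 such genes, 5 fell, 1 rose and 8 did not pass (median log2 fold change -0.11). Over all tested genes 15.1% were called lower and 16.5% higher. Their levels summed to 11110 and 10220 CPM in WT and 7629 and 8924 CPM in cKO, of which Junb is the largest term. Junb and Jund fell by 1.03 and 0.75 on the log2 scale, Zfp36 by 0.32 and Btg2 by 0.27. The calls for Zfp36 and Btg2 did not hold each time 1 library was left out. Their log2 fold changes then ran from -0.44 to -0.19 (Zfp36) and from -0.29 to -0.25 (Btg2). Jun rose by 0.27, whereas Fos, Fosb (-0.10), Atf3 (0.10), Nr4a1 (0.02), Klf6 (-0.11) and Egr1 did not pass. The call for Jun ends without WT 1 (edgeR adjusted p = 0.0527), WT 2 (0.0621) or cKO 2 (0.0917). The part of handling in the falls of Dusp1, Dusp4, Dusp5 and Dusp10 was not tested.

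Of the 7 called genes Dusp6 had the smallest p. The 3 genes nearest to it over the 4 libraries, by Euclidean distance of mean-centred log2 CPM, were Pik3ap1 (distance 0.0301), Srm (0.0306) and Raph1 (0.0332). Srm, which encodes spermidine synthase, measured 30.3 and 33.0 CPM in WT and 47.5 and 48.0 CPM in cKO. With 4 libraries many genes lie near any pattern, and the likeness is a description.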

How the data were processed

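RNA of splenic Treg cells was sequenced in 4 libraries, 2 labelled WT and 2 labelled cKO. The authors deposited raw counts per gene, as whole numbers that sum to 28442416 to 35560491 in a library. The submitters' processing notes name the build mm10. The counter, aligner, annotation and strand setting were not given in the sources used here. Without strand, overlapping genes on opposite strands can share reads. From the counts, edgeR 4.0.16 in R 4.3.3 kept 13861 genes (filterByExpr, minimum count 10, minimum total 15) and compared cKO with WT by its 2-sided quasi-likelihood F test with TMM scaling, group as the only term and Benjamini-Hochberg adjustment over all tested genes (threshold 0.05). Standard errors are |log2 fold change| over the root of the F statistic, and 95% intervals use the test's degrees of freedom. The fit was run on simulated counts in which genes varied independently of each other, so that run gives no error rate for the calls made here. The genes and the lists were chosen with earlier results of these data known. All 10 members are named, with up to 4 called genes of smallest p from each pathway list. Further genes were named once their values were known. Gene coordinates and promoters came from RefSeq (GRCm38.p6, which mm10 also holds) by gene number and symbol, and exon lengths from GENCODE M21. Alternatives were DESeq2 1.42.0, upper-quartile and RLE scaling, no filter, a filter of 5 CPM in 2 libraries, a replicate block, leaving out each library and a threshold of 0.10. With TMM scaling 1 count is 0.0288 to 0.0344 CPM, and genes with few counts, such as Mapk13 (4 and 8 in WT), carry the most counting error.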

Additional observations from a re-analysis of the deposited data

How the results depend on the processing

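The 5 falls (Dusp10, Dusp4, Dusp5, Dusp1, Spred2) and the rise of Dusp6 kept direction and call in each of 11 alternatives. Log2 fold changes ran from -1.71 to -1.24 for Dusp10 and from 0.50 to 0.65 for Dusp6. Without WT 1, Spred2 kept its call only narrowly (log2 fold change -0.31). Spred1 lost its call without WT 1 or cKO 1, so that 1 to 2 members were called higher when a library was left out. At a threshold of 0.10, and with upper-quartile scaling, 3 were called higher, Dusp2 being the addition. The fold change of Spry2 ran from -0.33 (without cKO 2) to 0.36 (without cKO 1) and was -0.01 without WT 2. Of 50 called pathway genes outside the members, 23 lost their call under at least 1 alternative and 0 changed sign.

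Over all genes 4380 were called, 2876 with DESeq2 (1301 of them higher) and 1869 to 2747 without 1 library (886 to 1375 higher, 983 to 1372 lower). The cause was not tested; the last have fewer samples. The labels number the libraries but do not say that a number marks a shared mouse or day. Deviations of same-numbered libraries correlated at -0.323 over 13861 genes. With a replicate block 2292 genes were called (1151 higher, 1141 lower), and of the members 5 lower and 2 higher. With the numbers crossed, an alternative chosen after seeing the data, 6713 genes were called (3520 higher, 3193 lower), with 5 members lower and 3 higher. With 2 libraries a group, small differences such as those of Dusp2 and Spry1 were not resolved.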
